A study of Danio rerio with 33 samples.

Results

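Apolipoproteins are the protein coat of the particles that carry fat and cholesterol in blood, and 10 zebrafish apolipoprotein genes of liver and yolk were followed here in embryos exposed to extracts of urban air particles. The genes were picked by symbol: apobb.1, apobb.2, apoba, apoa1a, apoa1b, apoa2, apoea, apoeb, apoc1 and apoa4b.1. Of the 25432 genes in the count table, 8 carried one of these symbols in the table itself and apobb.2 (ENSDARG00000075016) was matched through the table of gene identifiers. No row carried the symbol apoba, so 9 genes were measured, and all 9 were among the 22124 genes with enough counts to be tested. A row named APOB (ENSDARG00000042780) exists but is not paired with apoba by the files, and its values are given apart from the 9. The list was drawn up with earlier results on these libraries in view, and which values were weighed is not recorded, so the p-values below place each gene within the fit of all genes and are not independent of the choice.

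Apolipoprotein B is the large scaffold protein on which liver, intestine and, in fish embryos, the yolk syncytial layer build triglyceride-rich particles. Apolipoproteins A-I and A-II are the main proteins of high-density lipoprotein, and A-IV proteins are made mainly by the intestine during fat absorption. Apolipoprotein E is a ligand for receptors that take particles up, and C-I is a small exchangeable protein that in mammals restrains lipid transfer and uptake. In the larva, yolk lipid leaves the yolk on such particles while liver and intestine take over their production.

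Wild-type embryos in pools of 10 were exposed for 24 h, from 96 to 120 h after fertilisation, to an organic filter extract (dichloromethane and methanol, carried in methanol), and RNA of whole embryos was sequenced. Controls were 6 pools in vehicle methanol and 3 pools in extract of a mock filter. Harbour extracts came from filters 32, 36 and 38 with 1, 4 and 4 pools, and traffic road extracts came from filters 26, 28 and 30 with 4, 4 and 1 pools, all from the cold season in Barcelona. Airport extracts came from filters 44 and 48 of the cold season and filter 54 of the warm season in Barcelona, with 1 pool each, and the subway extract came from filter 80 in Valencia with 3 pools. Sequencing was done in 2 rounds. Round 1 held vehicle 1 to 3, the mock filter and airport pools and pool 1 of every harbour and road filter. Round 2 held vehicle 4 to 6, the remaining harbour and road pools and the subway pools. Within round 2, the 3 subway pools and harbour 36 pool 4 were in library series 38, which holds no vehicle pool. Subway against vehicle can therefore be told apart from library series only through that 1 harbour pool. Pools of a filter repeat the exposure to that extract, not the sampling of air, and nothing in the labels says that pools came from separate crosses, so p-values measure the spread between these pools. An equal dose in all pools is an assumption.

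Library totals ran from 18448718 to 51854033 counts, of which the 9 genes took 0.957 to 1.70 percent. The share of uniquely mapped reads was 71.7 to 77.1 percent in round 1 libraries and 78.7 to 79.5 percent in those of round 2. Duplicate read pairs made up 30.92, 30.18, 31.08 and 30.39 percent in vehicle 2, vehicle 3, mock filter 1 and road 28 pool 1. In airport 44, 48 and 54 they made up 17.74, 18.5 and 23.44 percent. Airport 54 had the highest total and the lowest mean insert size, 197.3. The part of these differences in the results was not tested. Vehicle 3 and mock filter 2 and 3 stood apart, with 80.7, 58.3 and 63.4 CPM (counts relative to library size, scaled by TMM) of the antiviral gene mxc, and the airport comparison is given without them below. Whole-embryo RNA cannot place a transcript in liver, intestine or yolk, and fewer cells of a type cannot be told apart from less RNA per cell. Levels are CPM and differences are log2 fold changes ± standard error (SE) from edgeR's quasi-likelihood test, with p-values adjusted by Benjamini-Hochberg over all genes tested and a threshold of 0.05. CPM is not divided by gene length, so levels are compared between pools and never between genes. Shares of all genes called are at the adjusted threshold, so counts at an unadjusted p are not comparable with them. The share of all genes at an unadjusted p under 0.05 was not counted. In road, apoeb with an unadjusted edgeR p of 0.0538 was at place 3452 by p among the 22124 genes tested. In mock filter, apobb.1 with an unadjusted edgeR p of 0.0336 was at place 2116.

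In the airport pools, 4 of the 9 genes were higher than in vehicle, namely apoeb, apobb.1, apoa1a and apoc1. The second apolipoprotein B gene, apobb.2, was lower, at 0.0964 of its vehicle level. The other 4, apoa1b, apoa2, apoea and apoa4b.1, did not pass the test. For the 4 that rose, the airport fit against mock filter as the only control is not given here. Across all genes tested, 33.5 percent passed in this comparison, 16.9 percent upward and 16.6 percent downward, so a call by itself was common in airport. The median log2 fold change of the 9 was 0.14, beside -0.03 for all genes. Taken as whole sites, harbour (0.615 percent of all genes called), road (0.353 percent) and mock filter (0.0136 percent) had 0 of the 9 called by edgeR, and subway (0.145 percent) had 1.

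**Figure D1:**
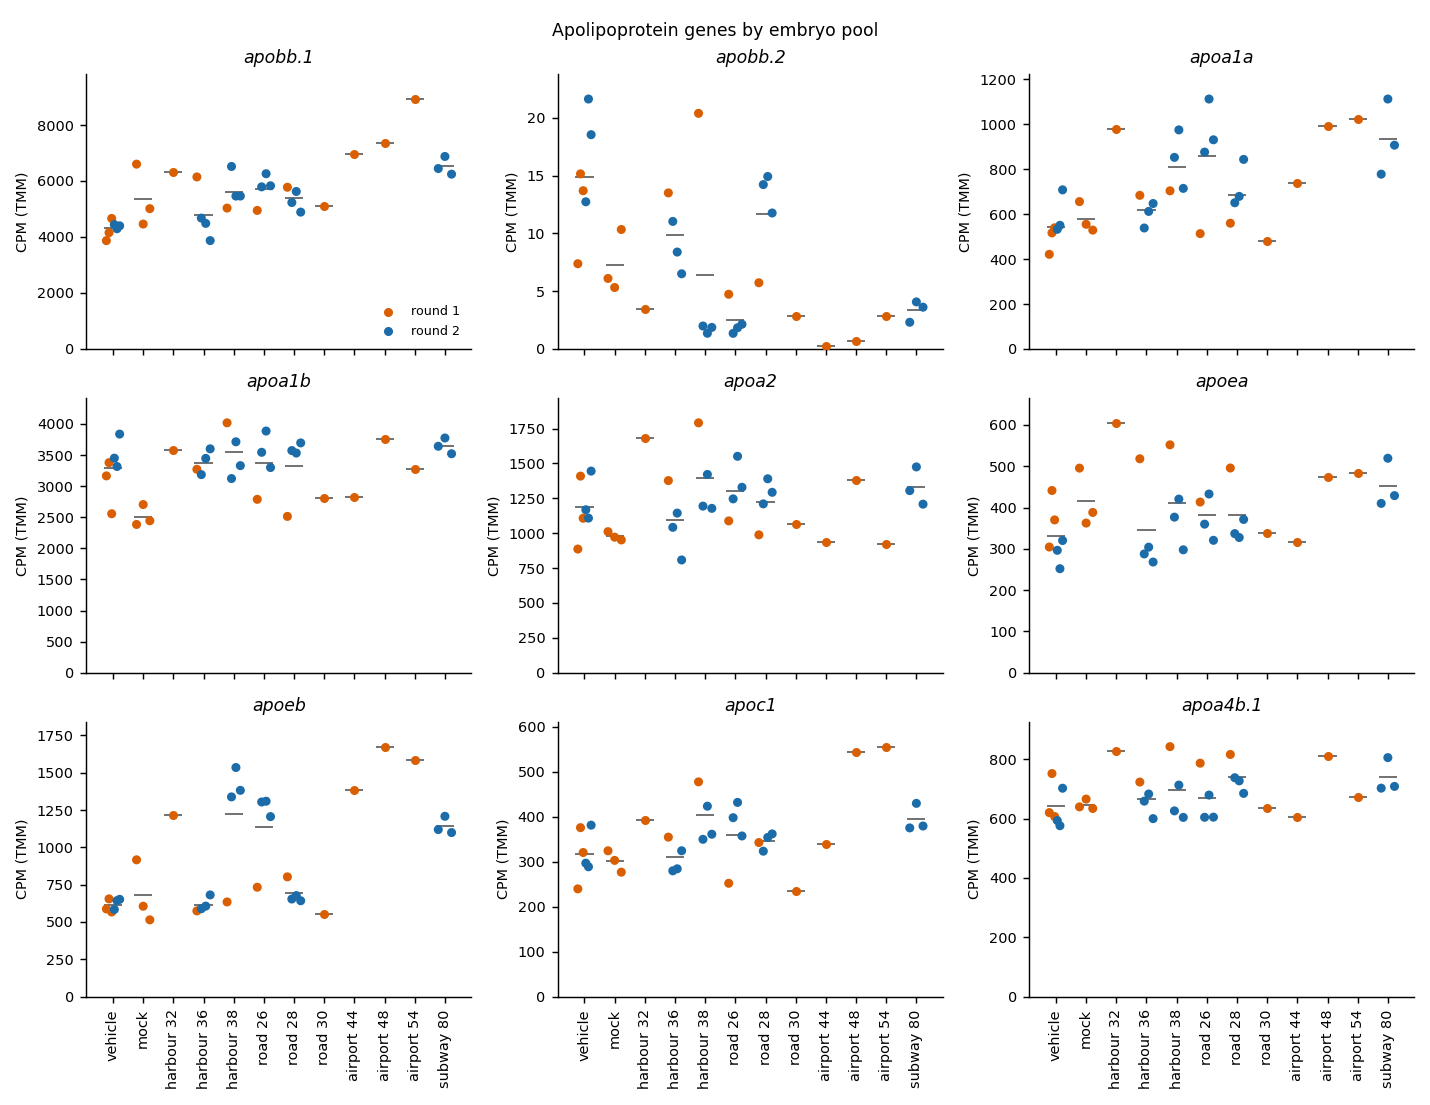
Level of each of the 9 measured apolipoprotein genes in every embryo pool, in CPM scaled by TMM, with linear axes from 0. Each point is 1 pool, coloured by sequencing round, and the bar is the mean of the pools of a filter or control. The apoeb points of the airport filters lie between 1381 and 1675 CPM, above every vehicle pool, and the apobb.2 points of the same filters lie between 0.268 and 2.85 CPM, below every vehicle pool.

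The apolipoprotein B gene apobb.1 (ENSDARG00000022767) encodes the particle scaffold. Its vehicle pools ran from 3869 to 4662 CPM with a median of 4346. Airport pools held 6963, 7343 and 8929 CPM for filters 44, 48 and 54. All 3 airport pools lay above all 6 vehicle pools. Its log2 fold change was 0.83 ± 0.13, or 1.78-fold (edgeR adjusted p = 7.55e-05), and 0.87 ± 0.16 in round 1 alone (edgeR adjusted p = 0.00267), where 19 percent of all genes passed. The 3 subway pools held 6445, 6876 and 6244 CPM, also above every vehicle pool. The fold in subway was 0.61 ± 0.13 (edgeR adjusted p = 0.0499). That call was lost when any subway pool was left out, with an adjusted p of 0.168 to 0.318, and when vehicle 1, 2, 4, 5 or 6 was left out, with 0.0745 to 0.109. It was also lost with mock filter as the control (edgeR adjusted p = 0.671), against which the difference was 0.31. Fitted by site in round 2 alone, the subway call was lost as well. Fitted by filter there, a fit chosen after seeing the data, the difference was 0.57 ± 0.09 (edgeR adjusted p = 1.6e-04), where 12.9 percent of all genes passed.

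Harbour and road pools lay between vehicle and airport for apobb.1. The 9 road pools ran from 4888 to 6260 CPM with a median of 5625, and all 9 lay above every vehicle pool. The road difference of 0.36 ± 0.10 did not pass (edgeR adjusted p = 0.109), though it passed by DESeq2 (adjusted p = 0.033), as 1 of the 9 beside 1.4 percent of all genes. In road 4 of the 9 had an unadjusted edgeR p under 0.05. The 9 harbour pools ran from 3870 to 6519 CPM with a median of 5461, and 7 lay above every vehicle pool. The harbour difference was 0.31 ± 0.10 (edgeR adjusted p = 0.136), and in harbour 0 of the 9 passed by DESeq2 (1.74 percent of all genes) while 4 had an unadjusted edgeR p under 0.05. It passed when harbour 36 pool 4, the lowest at 3870 CPM, was left out (edgeR adjusted p = 0.0464). The mock filter pools held 6602, 4461 and 5012 CPM, so pool 1 lay within the range of the subway pools. The mock filter difference from vehicle was 0.30 ± 0.14 and did not pass (edgeR adjusted p = 0.351). Mock filter had 0 of the 9 called by DESeq2 (0.38 percent of all genes) as well, and 2 with an unadjusted edgeR p under 0.05.

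The second apolipoprotein B gene, apobb.2, moved the other way and had few reads. Vehicle pools ran from 7.38 to 21.6 CPM with a median of 14.4, from 129 to 623 counts. Airport pools held 0.268, 0.695 and 2.85 CPM for filters 44, 48 and 54, from 5, 13 and 144 counts. All 3 lay below all 6 vehicle pools. The log2 fold change was -3.37 ± 0.90 (edgeR adjusted p = 0.00478) and reached -4.96 without the pool of filter 54. In round 1 alone it was -3.04 ± 0.65 (edgeR adjusted p = 0.00526). Against mock filter as the only control, whose pools held 6.10, 5.32 and 10.3 CPM, it was -2.29 and did not pass (edgeR adjusted p = 0.0796). The files do not say how reads shared by near-identical copies were counted, so the split between apobb.1 and apobb.2 is uncertain.

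Levels of apobb.2 in harbour and road pools varied widely within a site. Harbour 36 pools held 13.5, 11, 8.39 and 6.51 CPM. Harbour 38 held 20.4 CPM in pool 1, from round 1, and 1.98, 1.35 and 1.86 CPM in pools 2 to 4, from round 2. The round 2 pools of harbour 38 therefore lay below every vehicle pool and its round 1 pool near the highest. Road 26 pools held 4.73, 1.35, 1.83 and 2.14 CPM and road 28 pools held 5.73, 14.2, 14.9 and 11.8 CPM. All road 26 pools lay below every vehicle pool, against 1 of the 4 road 28 pools. Subway pools held 2.31, 4.07 and 3.61 CPM, all below every vehicle pool, and harbour 32 and road 30 held 3.45 and 2.86 CPM in 1 pool each.

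Among the high-density lipoprotein genes, apoa1a (ENSDARG00000012076), an apolipoprotein A-I, rose in the airport pools and its paralog apoa1b did not pass. Vehicle pools of apoa1a ran from 421 to 708 CPM with a median of 536. Airport pools held 741, 993 and 1023 CPM, all above every vehicle pool. The log2 fold change was 0.90 ± 0.20 (edgeR adjusted p = 0.00133), and 0.89 ± 0.16 in round 1 alone (edgeR adjusted p = 0.00216). Subway pools held 778, 1113 and 907 CPM, also above every vehicle pool, with a difference of 0.64 ± 0.20 that did not pass (edgeR adjusted p = 0.216). Of harbour and road pools, 4 of 9 in each site lay above every vehicle pool. Harbour 32, in 1 pool, held 978 CPM, within the airport range, and road 30 held 478 CPM, within the vehicle range.

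The other A-type members stayed within or near the vehicle range in airport. In harbour, 2 of the 9 pools lay above every vehicle pool for apoa2 and 1 lay below. For apoa1b (ENSDARG00000101324) vehicle pools ran from 2556 to 3837 CPM and airport pools from 2821 to 3758, with a log2 fold change of 0.09 and a 95 percent interval of -0.13 to 0.32. Mock filter was the lowest group for this gene, at 2384 to 2704 CPM. The apolipoprotein A-II gene apoa2 (ENSDARG00000015866) ran from 886 to 1445 CPM in vehicle and from 923 to 1381 in airport, a difference of -0.16 with an interval of -0.53 to 0.22. The A-IV gene apoa4b.1 (ENSDARG00000040298) ran from 576 to 752 CPM in vehicle and from 605 to 813 in airport, a difference of 0.02 with an interval of -0.18 to 0.23. None of these 3 intervals reached a log2 difference of 1 in either direction. Against mock filter alone, apoa1b was 0.39 higher in airport and passed (edgeR adjusted p = 0.0339).

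The receptor ligand gene apoeb (ENSDARG00000040295), an apolipoprotein E, had the largest rise of the 9 in the airport pools. Vehicle pools lay close together, from 567 to 654 CPM with a median of 615. Airport pools held 1381, 1675 and 1587 CPM for filters 44, 48 and 54. The lowest airport pool lay far above the highest vehicle pool. The log2 fold change was 1.48 ± 0.29, or 2.79-fold (edgeR adjusted p = 3.74e-04), and 1.36 ± 0.26 in round 1 alone (edgeR adjusted p = 0.00288). Subway pools held 1119, 1208 and 1099 CPM, harbour 32 held 1218 CPM in 1 pool, and road 30 held 555 CPM in 1 pool. The subway and harbour 32 pools lay above every vehicle pool and below every airport pool, and road 30 lay just under the lowest vehicle pool. Mock filter pools held 916, 605 and 514 CPM, and only pool 1 was above the vehicle range.

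The paralog apoea (ENSDARG00000102004) did not follow apoeb. Vehicle pools ran from 252 to 441 CPM and airport pools held 316, 473 and 483 CPM, a difference of 0.14 ± 0.17 (edgeR adjusted p = 0.579). Its highest values, 605 and 552 CPM, were in the round 1 pools of harbour 32 and 38, and pool 1 of harbour 36 held 518 CPM. Subway pools held 410, 519 and 429 CPM, a difference of 0.70 ± 0.17 (edgeR adjusted p = 0.0792), which passed by DESeq2 (adjusted p = 0.0185), as 1 of 2 genes among the 9 and beside 0.816 percent of all genes. For apoc1 (ENSDARG00000092170), vehicle pools ran from 239 to 381 CPM and airport pools held 338, 544 and 556 CPM. The pool of filter 44 lay within the vehicle range and the others above it. The log2 fold change was 0.63 ± 0.18 (edgeR adjusted p = 0.00833), and 0.53 without the pool of filter 48, where it did not pass (edgeR adjusted p = 0.0529).

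The other members did not pass in harbour or road as whole sites, with edgeR adjusted p-values of 0.181 to 0.768 and 0.258 to 0.901. In harbour apoeb was at 0.57 ± 0.22, apoa1a at 0.42 ± 0.15, apoea at 0.33 ± 0.12 and apobb.2 at -0.998 ± 0.52, and apoa1b, apoa2, apoc1 and apoa4b.1 lay between 0.06 and 0.18. In road apoeb was at 0.44 ± 0.22, apoa1a at 0.38 ± 0.15, apoea at 0.28 ± 0.13 and apobb.2 at -1.15 ± 0.52, and the same 4 genes lay between -0.03 and 0.15.

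Without vehicle 3 and mock filter 2 and 3, 4 of the 9 still rose and 1 fell in airport. In the main fit 33.5 percent of all genes passed in airport, and the share without these pools is not given here. The row APOB ran from 148 to 259 CPM in vehicle and held 139.5, 188 and 308 CPM in airport, a difference of 0.14 ± 0.19 (edgeR adjusted p = 0.597).

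Ordered by site mean, apobb.1 ran from airport (7745 ± 1043 CPM, SD, n = 3) through subway (6522 ± 323, n = 3), road (5494 ± 471, n = 9), mock filter (5358 ± 1112, n = 3) and harbour (5329 ± 897, n = 9) to vehicle (4303 ± 272, n = 6). The ranges of road, mock filter and harbour overlapped, and the lowest airport pool (6963 CPM) lay just above the highest subway pool (6876 CPM). For apoeb the order was airport (1548 ± 151), subway (1142 ± 58.1), harbour (951 ± 405), road (876 ± 307), mock filter (678 ± 211) and vehicle (614 ± 39.4), with the same numbers of pools. The harbour and road values spread far more than the vehicle values and overlapped with each other, with mock filter, with vehicle and with subway. The highest harbour pools also reached into the airport range. For apobb.2 the order was vehicle (14.9 ± 4.93), harbour (7.61 ± 6.46), mock filter (7.25 ± 2.70), road (6.62 ± 5.51), subway (3.33 ± 0.916) and airport (1.27 ± 1.39).

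Set directly against the other Barcelona sites, airport differed in 3 of the 9 genes from each. Against harbour, where 18.6 percent of all genes passed, apobb.1 was higher by 0.52 ± 0.13 (edgeR adjusted p = 0.00753), apoeb was higher by 0.92 ± 0.29 (edgeR adjusted p = 0.0257), and apobb.2 was lower by 2.38 on the log2 scale (-2.38 ± 0.84, edgeR adjusted p = 0.0466). The apobb.2 call was lost without the pool of airport 44 or 48, harbour 36 pool 1, 2 or 3 or harbour 38 pool 1 (edgeR adjusted p = 0.0573 to 0.176), and the apoeb call without any of the 3 airport pools, harbour 36 pool 1 or harbour 38 pool 1 (edgeR adjusted p = 0.0558 to 0.0739). The other 6 genes lay between -0.28 for apoa2 and 0.47 for apoa1a and did not pass (edgeR adjusted p = 0.0698 to 0.888). In round 1 alone 1 of the 9 was higher and 2 were lower, beside 17.1 percent of all genes called. These were apoeb at 0.94 (edgeR adjusted p = 0.021), apobb.2 at -3.07 (edgeR adjusted p = 0.00575) and apoa2 at -0.58 (edgeR adjusted p = 0.0314), and apobb.1 at 0.41 did not pass (edgeR adjusted p = 0.0921).

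Against road, where 17.9 percent of all genes passed, apoeb was higher by 1.04 ± 0.29 (edgeR adjusted p = 0.0139), apobb.1 by 0.48 ± 0.13 (edgeR adjusted p = 0.0146) and apoc1 by 0.54 ± 0.18 (edgeR adjusted p = 0.036). The apoeb call held in each of the 12 fits with an airport or road pool left out. The apobb.1 call was lost without airport 54 (edgeR adjusted p = 0.0839), and the apoc1 call without airport 48, airport 54, road 26 pool 1 or road 30 (edgeR adjusted p = 0.0731 to 0.144). Of the other 6 genes, apoa1a at 0.52 ± 0.20 (edgeR adjusted p = 0.0698) and apobb.2 at -2.23 ± 0.87 (edgeR adjusted p = 0.0705) did not pass, nor did the remaining 4, between -0.23 and 0.12. In round 1 alone 4 of the 9 were higher and 0 lower, beside 13.1 percent of all genes called. These were apoa1a at 0.82 (edgeR adjusted p = 0.00541), apoeb at 1.14 (edgeR adjusted p = 0.0107), apoc1 at 0.78 (edgeR adjusted p = 0.0197) and apobb.1 at 0.54 (edgeR adjusted p = 0.0381).

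The site means of harbour and road averaged filters that differed. In the fit with 1 coefficient per filter, road 26 against vehicle had 3 genes higher and 1 lower, among 16.8 percent of all genes. For apoeb, road 26 pools held 733, 1304, 1309 and 1206 CPM, all above every vehicle pool, a difference of 0.80 ± 0.17 (edgeR adjusted p = 0.00276). For apobb.2 the difference was -2.60 ± 0.55 (edgeR adjusted p = 0.00261). The apoa1a difference was 0.56 ± 0.14 (edgeR adjusted p = 0.00934) and that of apobb.1 was 0.41 ± 0.11 (edgeR adjusted p = 0.0144), and without road 26 pool 3 these fell just short, at 0.056 and 0.0572. Road 28 gave 0 calls by edgeR, beside 0.0904 percent of all genes called. At an unadjusted p under 0.05, where the share of all genes was not counted, were 3 of the 9. By DESeq2 road 28 also had 0 called, beside 0.19 percent of all genes. Its apoeb pools held 802, 654, 677 and 642 CPM. The 2 road filters differed in apoeb, by 0.68 ± 0.18 (edgeR adjusted p = 0.025), and in apobb.2, by -2.41 ± 0.58 (edgeR adjusted p = 0.0134), among 7.53 percent of all genes. Both calls were lost when road 26 pool 2 or 4 was left out, and that of apoeb also without road 26 pool 3 or road 28 pool 2, 3 or 4 (edgeR adjusted p = 0.0521 to 0.106).

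Harbour 38 against vehicle had 4 genes higher and 0 lower, among 10.1 percent of all genes. Its apoeb pools held 634, 1338, 1535 and 1382 CPM, a difference of 0.89 ± 0.17 (edgeR adjusted p = 0.00242). Pool 1, from round 1, lay within the vehicle range and the 3 round 2 pools far above it. The apoa1a difference was 0.50 ± 0.14 (edgeR adjusted p = 0.0255), that of apobb.1 0.39 ± 0.11 (edgeR adjusted p = 0.0288) and that of apoea 0.42 ± 0.13 (edgeR adjusted p = 0.0327). These 3 smaller calls depended on single pools. They were lost, with edgeR adjusted p-values of 0.0501 to 0.127, without harbour 38 pool 2 or 3 or vehicle 4 or 5 for all 3 genes, without harbour 38 pool 4 or vehicle 6 for apobb.1, and without harbour 38 pool 1 or vehicle 1 for apoea. Harbour 36 gave 0 calls among the 9 by edgeR, with 0 at an unadjusted p under 0.05 and 0.0588 percent of all genes called. By DESeq2 harbour 36 had 0 called too, beside 0.123 percent. Its apoeb pools held 574, 589, 606 and 681 CPM. Harbour 36 was lower than harbour 38 in apoeb by 0.97 on the log2 scale (-0.97 ± 0.18, edgeR adjusted p = 0.00612), among 7.13 percent of all genes. With pools paired by number and the 2 filters fitted alone, the difference was -0.91 and did not pass (edgeR adjusted p = 0.0896). It passed under the replicate block in the fit of all numbered pools. The pools numbered 4 are of different library series.

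**Figure D2:**
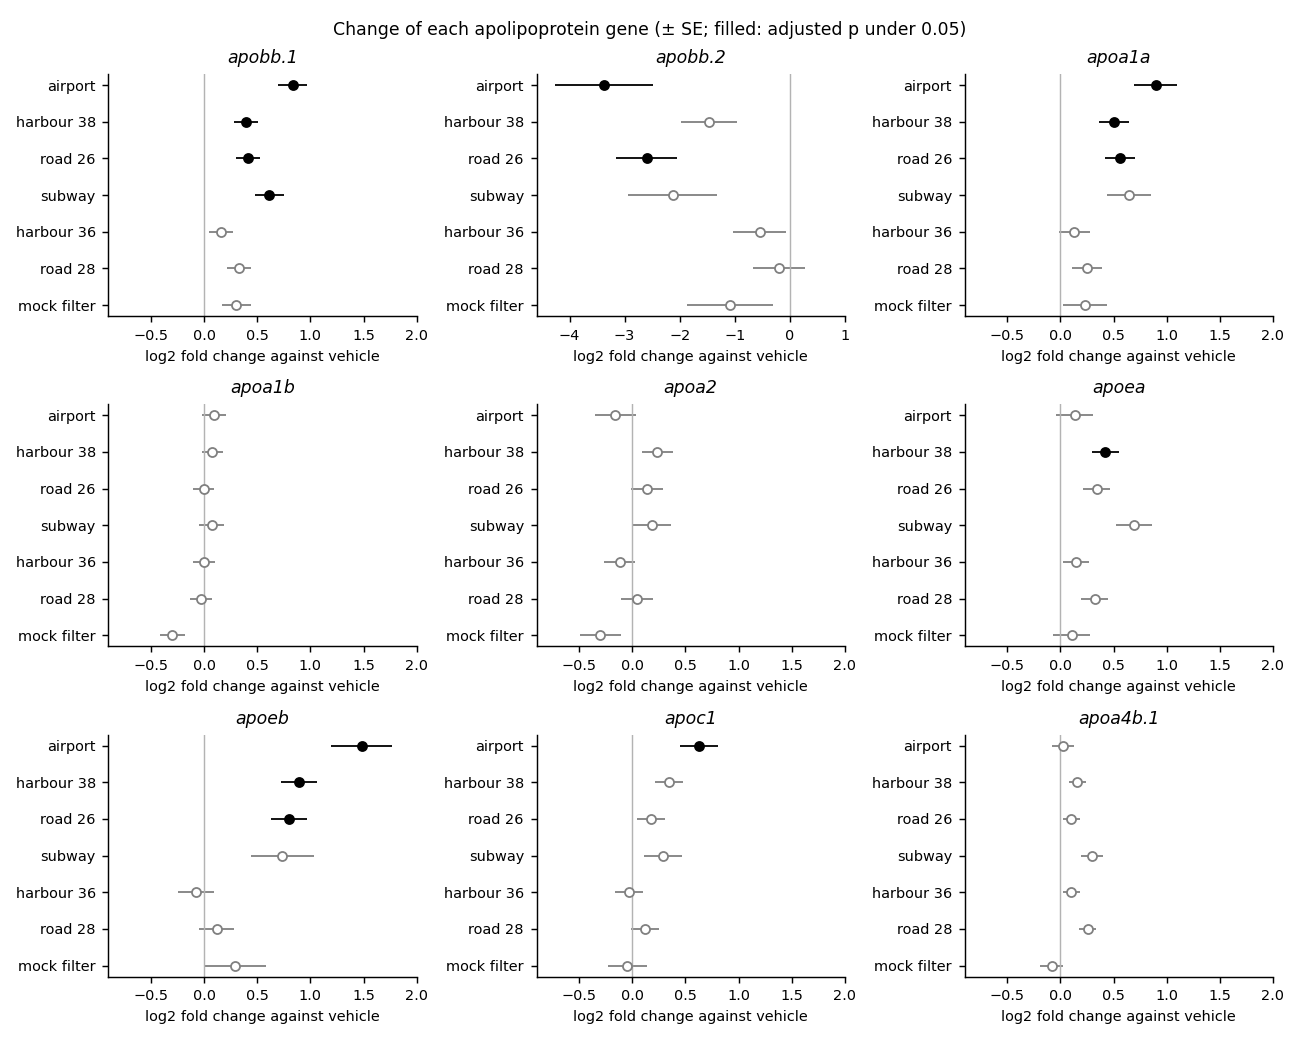
Log2 fold change against vehicle of each of the 9 genes, with bars of 1 SE; filled points passed an adjusted p of 0.05. Airport, subway and mock filter come from the fit by site and the harbour and road filters from the fit by filter, and the axis of apobb.2 is wider than the others. Road 28 and harbour 36 have no filled point, and apoeb is filled in airport (1.48), harbour 38 (0.89) and road 26 (0.80). The SE of apoeb was 0.22 in harbour by site and 0.17 in harbour 38 by filter, so filled and open points are not comparable between the 2 fits. For subway, apoeb was at 0.74 ± 0.30 by site and 0.86 ± 0.07 by filter in round 2 alone, a fit chosen after seeing the data (edgeR adjusted p = 0.365 and 2.53e-07).

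The pools of harbour 38 and road 26 differed by round. Against the vehicle mean of its own round, pool 1 of harbour 38 differed by 0.08 in log2 apoeb and 0.82 in log2 apobb.2, and pool 1 of road 26 by 0.28 and -1.27. In round 2 alone, apoeb was higher by 1.18 ± 0.07 in harbour 38 (edgeR adjusted p = 1.16e-09) and by 1.04 ± 0.07 in road 26 (edgeR adjusted p = 3.38e-09). In the same libraries apobb.2 was at -3.35 ± 0.25 in harbour 38 (edgeR adjusted p = 8.3e-09) and at -3.31 ± 0.24 in road 26 (edgeR adjusted p = 3.72e-09). In both filters the round 2 pools thus lay farther from vehicle in apoeb and lower in apobb.2 than the round 1 pool.

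With round 2 alone, road 26 had 5 of the 9 genes higher and 1 lower, among 32.4 percent of all genes, adding apoea (0.37, edgeR adjusted p = 0.0285) and apoc1 (0.31, edgeR adjusted p = 0.0288). Harbour 38 had 3 higher and 1 lower among 28.8 percent. Harbour 36 had 1 lower, apobb.2 at -1.02 ± 0.21 (edgeR adjusted p = 0.0294), among 0.389 percent, and road 28 had 0 called by edgeR among 0.165 percent, with 2 at an unadjusted p under 0.05. Harbour 36 against 38 had 1 higher and 5 lower among 23.9 percent, and road 26 against 28 had 2 higher and 1 lower among 26.6 percent. Subway, fitted by filter in round 2 alone (a fit chosen after seeing the data), had 4 higher and 1 lower among 12.9 percent: apoeb 0.86 ± 0.07 (edgeR adjusted p = 2.53e-07), apoea 0.64 ± 0.13, apoa1a 0.64 ± 0.14, apobb.1 0.57 ± 0.09 and apobb.2 -2.41 ± 0.23. Pools of a filter in different rounds also differed in the share of uniquely mapped reads and in a title number that the sources used here do not explain, and the part of either in these results was not tested.

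**Figure D3:**
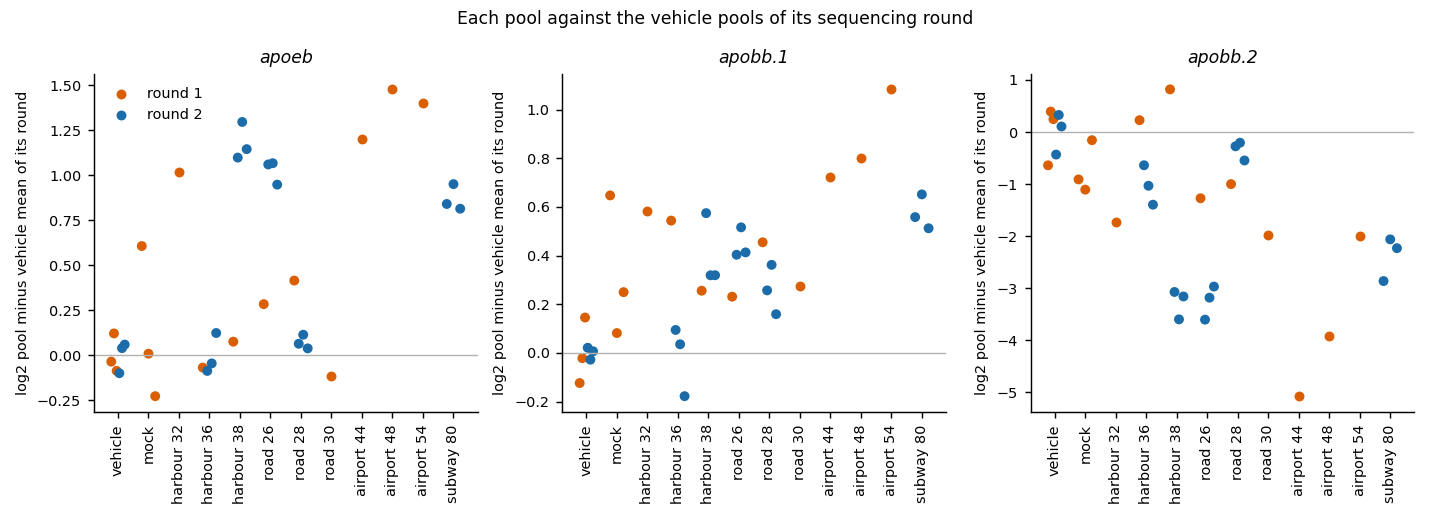
Each pool as log2 CPM minus the mean log2 CPM of the vehicle pools of its own round, for apoeb, apobb.1 and apobb.2, with points coloured by round. In harbour 38 and road 26 the round 2 pools lie about 1 above vehicle for apoeb and about 3 below for apobb.2, and the round 1 pool of harbour 38 lies at 0.08 and 0.82.

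Between rounds, over all groups that spanned both, 1 of the 9 was higher in round 2 and 2 were lower, among 28.2 percent of all genes. These were apoa1a at 0.30 ± 0.10 (edgeR adjusted p = 0.0322), apoea at -0.48 ± 0.09 (edgeR adjusted p = 3.45e-04) and apoa4b.1 at -0.20 ± 0.06 (edgeR adjusted p = 0.0086). The apoa1a call was lost without pool 1 of harbour 38, road 26 or road 28 or without vehicle 1 or 6 (edgeR adjusted p = 0.0524 to 0.155). In the same comparison 9 of 12 enterocyte and 8 of 9 exocrine pancreas markers were lower in round 2 and none higher, alongside apoea and apoa4b.1. The part of these tissues in the round differences was not tested.

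Further apolipoprotein genes, and then the lists below, were counted in airport, where the share called among all genes was 33.5 percent and their median log2 fold change -0.03. Of 14 listed, 12 were measured, and 6 rose and 2 fell, with a median log2 fold change of 0.44. The A-IV gene apoa4b.3 rose by 2.06 ± 0.35 (edgeR adjusted p = 1.07e-04), from 38.7 to 72.3 CPM in vehicle to 158, 194 and 233 CPM in airport, and apoa4b.2 rose by 0.77 ± 0.12. The high-density lipoprotein protein gene apom rose by 0.82 ± 0.16, apof by 0.72 ± 0.17 and apoc2, whose product activates lipoprotein lipase in mammals, by 0.43 ± 0.13. The acute-phase gene saa was called at 5.56 ± 1.33, but airport 44 held 52.8 CPM and the other airport pools 0.748 and 0.277 CPM, within or near the vehicle range of 0 to 2.37. The lipocalin genes apoda.1 and apoda.2 fell by 1.46 and 0.58 on the log2 scale (-1.46 and -0.58). In harbour, road, subway and mock filter 0 of these 12 passed by edgeR, with 3, 5, 4 and 0 at an unadjusted p under 0.05. Of all genes, 0.615, 0.353, 0.145 and 0.0136 percent were called there at the adjusted threshold, which is not comparable with the unadjusted counts. In road 26, 5 rose and 1 fell beside 16.8 percent of all genes called, and in harbour 38, 3 rose and 1 fell beside 10.1 percent, with apoa4b.3 at 1.21 and 1.36.

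Genes that build and secrete the particles were followed in airport as well. Of 24 measured genes of lipoprotein assembly and secretion, 10 rose and 2 fell, beside 33.5 percent of all genes called, with a median of 0.35. Among them were the cargo receptor mia2 (0.47 ± 0.06), the coat components sec24d (0.63 ± 0.10) and sec23a (0.54 ± 0.09), tmem41b (1.63 ± 0.26), and dgat1b (0.98 ± 0.22), an enzyme of triglyceride synthesis. The monoacylglycerol acyltransferase gene mogat2 fell by 0.81 on the log2 scale (-0.81 ± 0.16). In harbour 1 of the 24 passed, mia2 at 0.20 ± 0.05, beside 0.615 percent of all genes called. In road 1 passed, sec24d at 0.31 ± 0.07, beside 0.353 percent.

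Of 22 measured genes for lipases, receptors and lipid transfer, 10 rose and 2 fell in airport, beside 33.5 percent of all genes called, with a median of 0.41. Hepatic lipase lipca rose by 2.39 ± 0.36 (edgeR adjusted p = 4.2e-05), lcat, which esterifies cholesterol on high-density lipoprotein, by 1.17 ± 0.20, and the transfer protein gene pltp by 1.03 ± 0.15. The receptor genes ldlrb and ldlra, whose products bind apolipoproteins B and E, rose by 1.1 ± 0.24 and 0.44 ± 0.11, and vldlr fell by 0.41 on the log2 scale (-0.41 ± 0.09). In harbour, road, subway and mock filter 0 of the 22 passed by edgeR, with 3, 5, 4 and 5 at an unadjusted p under 0.05. Of all genes, 0.615, 0.353, 0.145 and 0.0136 percent were called there at the adjusted threshold, which is not comparable with the unadjusted counts. In road 26, 7 rose and 1 fell (16.8 percent of all genes called), and in harbour 38, 2 rose (10.1 percent).

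**Figure D4:**
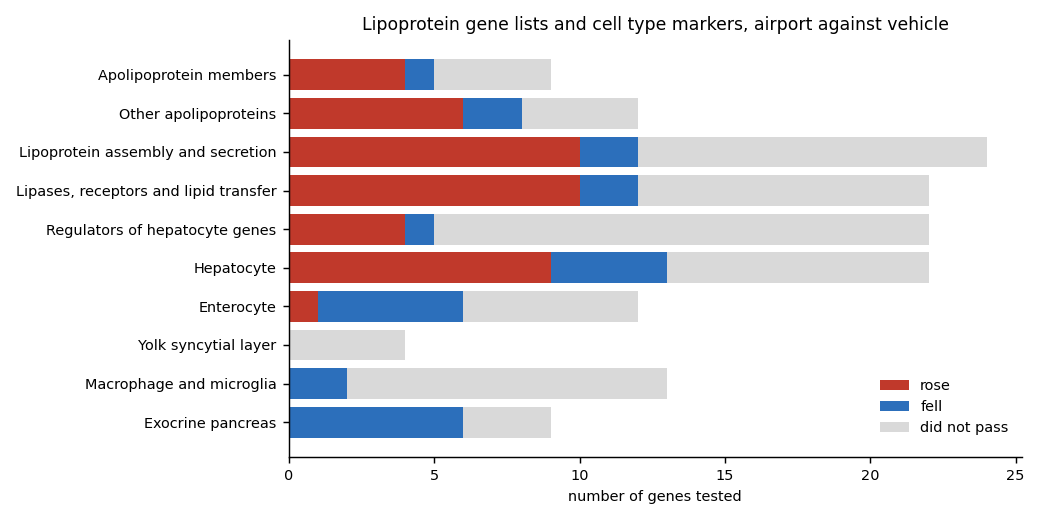
Number of tested genes in each list that rose, fell or did not pass in airport against vehicle (adjusted p of 0.05, edgeR), as stacked bars from 0. Rises outnumber falls among the 9 apolipoproteins (4 and 1) and in the 3 lipoprotein lists (6 and 2, 10 and 2, 10 and 2), and all 6 called exocrine pancreas markers fell. Of all genes tested, 16.9 percent rose and 16.6 percent fell.

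Liver regulators and markers of the tissues that make these proteins were also counted. Of 22 regulators of hepatocyte genes, 4 rose and 1 fell in airport, 5 of 22 beside 33.5 percent of all genes, so these calls are no more frequent than among genes at large. The genes cebpb (2.22 ± 0.48), cebpa (0.65 ± 0.15), srebf2 (0.42 ± 0.10), which drives sterol genes, and foxa3 (0.39 ± 0.15) rose, and the bile acid receptor nr1h4 fell (-0.65 ± 0.20). The repressor nr0b2a fell in harbour (-1.01 ± 0.19, edgeR adjusted p = 0.00958) and road (-0.85 ± 0.19, edgeR adjusted p = 0.0366). Of 22 hepatocyte markers, 9 rose and 4 fell in airport, beside 33.5 percent of all genes called, with a median of 0.08. The fibrinogen genes fgb (1.42) and fgg (0.92) and the plasminogen gene plg (1.03) rose. The fatty acid binding gene fabp10a (-1.03), the transferrin gene tfa (-1.0) and ahsg1 (-2.10) fell. The summed hepatocyte markers were 4733 to 5377 CPM in airport and 4203 to 5419 CPM in vehicle, which overlap.

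Of 12 enterocyte markers, 1 rose and 5 fell in airport, beside 16.9 percent of all genes rising and 16.6 percent falling. Their sum was 3261 to 5033 CPM against 4120 to 5768 CPM in vehicle. The airport pools, all of round 1, lay below each vehicle pool of that round (5479, 5768 and 5137 CPM). So did the mock filter pools (4454, 4692 and 4973 CPM), harbour 32 (4145 CPM), harbour 36 pool 1 (4834 CPM) and road 30 (4614 CPM). Pool 1 of harbour 38, road 26 and road 28 held 5516, 5493 and 5319 CPM. Of 9 exocrine pancreas markers, 0 rose and 6 fell. Of 4 yolk syncytial layer markers tested (slc40a1, gata6, gata5 and hnf4a), 0 passed by edgeR in airport, with 1 at an unadjusted p under 0.05. The gene hnf4a is also among the regulators of hepatocyte genes counted above. Of the further markers, mxtx2 was at 0 in 20 of 33 libraries and was not tested, and afp4 was not found by name. The A-IV genes apoa4b.2 and apoa4b.3 rose in the pools where 5 enterocyte markers fell and 1 rose. The part of the intestine in these differences was not tested.

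Macrophages and microglia also express apoeb in zebrafish. Of 13 such markers, 0 rose and 2 fell in airport, cd74b and cd74a (-2.56 and -2.31), beside 33.5 percent of all genes called and with a median of 0.31. Their summed level was 97.6, 108 and 126 CPM in airport and ran from 63.7 to 165 CPM in vehicle, where vehicle 3 was highest and the other 5 lay at 63.7 to 83.3 CPM. Mock filter 2 and 3 held 170 and 149 CPM of these markers with apoeb at 605 and 514 CPM, inside and below the vehicle range. Mock filter 1 held 99 CPM, with log2 apoeb 0.61 above the vehicle mean of its round. Harbour 38 pools held 81, 99, 97 and 113 CPM of the markers. Their log2 apoeb lay 0.08, 1.1, 1.3 and 1.1 above the vehicle mean of their round. Road 26 pools held 98, 93, 98 and 89 CPM, with log2 apoeb 0.28, 1.06, 1.07 and 0.95 above it. In subway 1 of 13 rose, slc7a7, beside 0.145 percent of all genes called, and the sum was 98.7 to 101 CPM. The same gene rose in road (0.33 ± 0.07, edgeR adjusted p = 0.0386). It also rose in road 26 (0.32 ± 0.08, edgeR adjusted p = 0.00853) and harbour 38 (0.33 ± 0.08, edgeR adjusted p = 0.0125). In road 26 cd74a and cd74b fell, and in harbour 38 cd74b fell. No macrophage marker was at 0 in any library, and the part of these cells in the apoeb difference was not tested.

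Across the 33 libraries the 9 genes did not vary as a block. Correlations of log2 CPM share libraries, round and treatment, and are given as descriptions. The closest pairs were apoa1a with apoc1 (r = 0.82) and apoa1a with apoeb (0.82), followed by apobb.1 with apoeb (0.77), apoea with apoa4b.1 (0.74) and apobb.1 with apoa1a (0.73). In contrast apobb.2 ran against apoeb (-0.83) and apobb.1 (-0.62). Between the paralogs apoea and apoeb r was 0.33, and between apoa1a and apoa1b it was 0.55.

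The 3 genes most like each member differed in kind. Those most like apoeb were CA6 (r = 0.96), clu (0.95), which encodes the extracellular chaperone clusterin, and apoa4b.3 (0.95). Those most like apobb.1 were hspa9, yars1 and pla2g12a (0.85, 0.84 and 0.84), those most like apoa1a were pmt, hspa4a and pcca (0.90, 0.88 and 0.87), and those most like apoc1 were apoa1a, msmbl and vtnb (0.82, 0.82 and 0.80). For apoea they were uqcrh, sult1st2 and apoa4a (0.84, 0.83 and 0.79), for apoa1b sap30l, dnajc8 and hao1 (0.83, 0.79 and 0.77), for apoa2 ndufb8, aqp8a.1 and mrpl16 (0.84, 0.83 and 0.82), and for apoa4b.1 tm4sf21b, pcbd1 and nifk (0.80, 0.79 and 0.77). The mean of the 9 standardised genes ran closest to the chaperone gene hsp90aa1.1 (0.84) and farthest from the dystrophin gene dmd (-0.80).

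The genes most like apobb.2 were top2a, kifc1 and knl1 (r = 0.95, 0.95 and 0.94), which serve chromosome segregation in dividing cells. The gene top2a, encoding a topoisomerase of cycling cells, ran from 49.6 to 81.9 CPM in vehicle and from 17.5 to 28.7 CPM in airport, a difference of -1.55 ± 0.37 (edgeR adjusted p = 0.00227). In road 26 it was at -0.96 ± 0.24 (edgeR adjusted p = 0.00778). In the RefSeq annotation of GRCz12tu, an assembly other than the GRCz11 of the files, apobb.2 lies between mettl24 and bub1ba, a mitotic checkpoint gene. The levels of these neighbours, looked up after the values of apobb.2 were seen, correlated with it at 0.60 and 0.74. By r, bub1ba was at place 1037 among 22123 genes. In airport mettl24 fell (-0.96 ± 0.25, edgeR adjusted p = 0.00437) and bub1ba did not pass (-0.62 ± 0.35, edgeR adjusted p = 0.171). In road 26 it was the reverse, with bub1ba lower (-0.74 ± 0.24, edgeR adjusted p = 0.0373) and mettl24 not passing (-0.20 ± 0.20, edgeR adjusted p = 0.558). Road 26 was also lower than road 28 in bub1ba (-0.91 ± 0.25, edgeR adjusted p = 0.0312). How reads of overlapping genes were assigned is not given in the sources used here.

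In the same annotation apoa4b.1, apoa4b.3, apoa4b.2, apoeb, apoc1, apoc4, apoa2 and apoc2 form a run, broken only by provisional genes among the A-IV genes. Within this run the airport differences were 0.02 for apoa4b.1, 2.06 for apoa4b.3, 0.77 for apoa4b.2, 1.48 for apoeb, 0.63 for apoc1, -0.16 for apoa2 and 0.43 for apoc2. Of the 8, apoa4b.1, apoc4 and apoa2 did not pass, so genes that rose and genes that did not pass lay side by side. Elsewhere apoea and apoa4a are direct neighbours (r = 0.79), and apobb.1 and apobb.2 are not adjacent.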

How the data were processed

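RNA of 33 embryo pools was measured. The deposited table holds raw read counts per gene, whole numbers made by the authors with no normalisation. The deposited quality table gives percent of mapped and duplicate reads, per the file headers. Per the submitters' processing notes, BWA, CASAVA and GRCz11 were used, with no version given, and the labels' protocols give a stranded poly-A kit and paired reads. How reads were counted, on which strand and with which annotation is not given in the sources used. Values of near-identical or overlapping genes are therefore uncertain. Symbols came from the table for 17766 genes and from a gene ID table for 5860.

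Genes were kept with filterByExpr (22124 of 25432) and counts scaled by TMM in edgeR 4.0.16 (R 4.3.3). The quasi-likelihood test was fitted to all 33 libraries with 1 coefficient per site, or per filter, and sequencing round as covariate, since library series 38 holds no control. P-values were adjusted by Benjamini-Hochberg across the genes tested, and log2 CPM was taken with a prior count of 2. The fit was tested on simulated data. DESeq2 1.42.0 and limma 3.58.1 served alternatives.

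The members, the gene lists and the tests were chosen with earlier results of these data known. The rule names every member in every comparison; in the text those called are given by value in the site and filter comparisons, and most others by range or count. From each list, the text names genes among those past the threshold in airport, up to the 8 with the smallest p, and up to 4 in other sites; road 26, harbour 38 and round examples and the neighbours of apobb.2 were added after values were seen. Likeness is Pearson r of log2 CPM over 33 libraries, for genes whose mean log2 CPM reached 1.

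The counts of 45 pairs of libraries of the same control or filter differed by a chi-square of 4.67 to 90.8 per degree of freedom, beyond sampling noise. Deviations of same-numbered pools of harbour 36 and 38 correlated at 0.39, 0.25, 0.13 and 0.16, each over 0.1. The main fit holds no pairing, and fits with pools paired by number are given beside it. The pairing comes from the data, and number 1 is the round 1 pool in both. Road 26 and 28 (0.20, 0.03, 0.11 and 0.03) and vehicle with other groups did not each exceed 0.1. They were paired only in alternative fits.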

Additional observations from a re-analysis of the deposited data

Results flagged for a closer look

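In 3 cases the highest or lowest pool of a filter stood far from its other pools, by a test that chance meets in about 1 in 20 groups. It was run on 45 combinations of a gene and a group, so about 2.25 such cases come by chance, and 3 is close to that. For apoea, pool 1 of harbour 36 held 518 CPM and the others 268 to 304. For apobb.2, pool 1 of harbour 38 held 20.4 CPM and the others 1.35 to 1.98. For apoa1b, pool 1 of road 28 held 2513 CPM and the others 3532 to 3695. Each of these is the only round 1 pool of its filter. Round 2 against round 1, over all groups that spanned both and with these pools included, was at -0.48 for apoea (edgeR adjusted p = 3.45e-04). It was at -0.66 for apobb.2 (edgeR adjusted p = 0.182) and 0.18 for apoa1b (edgeR adjusted p = 0.0658). With 1 library left out, the apobb.2 value ran from -0.94 to 0.07, so its sign was not fixed. For apobb.2 the road 28 pools were higher in round 2 and the harbour 38 pools lower, so 1 common round term describes this gene poorly. The part of round in these 3 pools was not tested.

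The effects of 2 groups against vehicle differed by a direct test in 9 cases. Airport exceeded harbour by 0.52 in apobb.1 and 0.92 in apoeb and was lower in apobb.2 (-2.38). It exceeded road by 0.48 in apobb.1, 1.04 in apoeb and 0.54 in apoc1. Road 26 exceeded road 28 by 0.68 in apoeb and was lower in apobb.2 (-2.41). Harbour 36 was lower than harbour 38 in apoeb (-0.97). All are log2 differences past an adjusted p of 0.05 in edgeR's quasi-likelihood test of the main fit, which pairs no pools. With pools paired by number and the 2 filters of a site fitted alone, the calls between filters did not pass.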

How the results depend on the processing

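Counts of the 9 genes called moved by more than 1.5 times under these settings, all by edgeR unless named. The cause was not tested. Where no share of all genes called is given above for a setting, its count does not tell the 9 apart from genes at large. Subway had 1 called, and 0 with DESeq2 size factors, no filter on low counts, round 2 alone, the replicate block, the filter as a random block in limma voom, or mock filter as control, but 2 by DESeq2, 2 with 1 coefficient per filter and 5 with that in round 2 alone, the last 2 fits being chosen after seeing the data. Harbour had 1 with library series as covariate, road 1 and airport against road 5 by DESeq2. In round 2 alone harbour 36 had 1 and harbour 36 against 38 had 6. The replicate block gave 0 for road 26, harbour 38 and the round difference, with apoeb at 0.68 (adjusted p = 0.147) in road 26 and 0.76 (adjusted p = 0.159) in harbour 38, beside 0.80 and 0.89 without it, and 0 for both filter pairs with their 2 filters alone, a fit chosen after seeing the data. The replicate block over all groups matches pools by number alone. It joins vehicle 2 and 3 of round 1 with filter pools of round 2, and vehicle 5 and 6 with no other pool. The calls it lost are therefore not a test of pairing within a round. For airport no paired analysis was possible because its pools share no numbers across groups.

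Leaving out 1 library at a time gave 4 to 5 called in airport, 0 to 1 in harbour, 0 to 1 in subway, 1 to 5 for airport against harbour, 2 to 4 for airport against road, 2 to 6 in road 26, 1 to 4 in harbour 38, 0 to 3 for road 26 against 28, 1 to 3 for harbour 36 against 38 and 2 to 4 between rounds. Road, mock filter, road 28 and harbour 36 stayed at 0. No called gene changed sign under any setting run; refits of called genes kept the call in 423 cases and lost it in 84. Low counts of apobb.2 in airport, down to 5, limit the precision of its fold, and intervals cover spread between pools only.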
